A study of Homo sapiens with 6 samples.

Results

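The genes described here carry a numbered zinc finger symbol of 3 digits that begins with 7 or 8, from ZNF700 to ZNF891. A probe set was taken where the array's annotation gave it 1 gene and that symbol had this form, which selected 173 of 54613 probe sets and 80 of 19775 genes. Expression had been profiled on 3 arrays of LP-1/Cfz and 3 of LP-1. LP-1 is a line of human myeloma cells, and the parental cells had never been selected in drug. LP-1/Cfz is 1 line derived from LP-1 by stepwise selection in carfilzomib, a proteasome inhibitor. Its labels give resistance to 12 nM, and the cells had grown for 1 week without the drug before RNA was taken. Both lines were grown in the same medium, with 4% serum per the labels, while the study's methods give another serum content. Nothing states that triplicates were separate cultures, so p-values measure the spread between these samples only, which may be technical.

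Most numbered zinc finger genes encode C2H2 proteins, in which repeated fingers fold around a zinc ion and read DNA. In a large share of them a KRAB box at the other end of the protein recruits TRIM28, which brings the H3K9 methyltransferase SETDB1, HP1 proteins and histone deacetylases to the bound site. Many of these proteins silence transposable elements, and their genes arose by tandem duplication, most of all on chromosome 19. Not every gene with such a number is of this kind. ZNF711, a partner of the demethylase PHF8, ZNF703, a repressor of luminal breast cells, ZNF804A, ZNF750 and ZNF830 carry no KRAB box. Proteins were not analysed here, so the family is called by its symbol and not by the KRAB box. Of the 80 genes, 73 are protein-coding and 7 pseudogenes in RefSeq. They lie on 15 chromosomes, with 36 on chromosome 19, 13 on chromosome 7 and 7 on chromosome 16.

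The deposited values are log2 values in which each probe set is centred on an unstated baseline. They hold differences between arrays, not the level of a gene, so neither the plasma cell identity of the lines nor the abundance of a zinc finger transcript could be read from them. Of 9 plasma cell markers, 3 rose in LP-1/Cfz by limma, SDC1 by 0.38, TNFRSF17 by 0.27 and MZB1 by 0.39 on the log2 scale. The 2 that fell were CD38, by 1.07, and SLAMF7, by 2.17 (all named after their values were seen). These 5 are 55.6% of the markers, where 16.7% of all genes were called. Among markers of other cells, 1 of 7 for T and NK cells was lower (GNLY, named after its value was seen), and 0 of 6 myeloid and 0 of 5 stromal markers passed by limma (1 and 0 at an unadjusted p under 0.05). LP-1/Cfz replicate 3 stood apart, with an interquartile range of 0.338 where the other 5 arrays had 0.23 to 0.264.

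Zinc finger genes of this number range were lower rather than higher in LP-1/Cfz. At the gene level, as the mean of a gene's probe sets, 18 of the 80 fell and 1 rose at an adjusted p under 0.05 by limma, and 61 did not pass. The 18 are 22.5% of the genes, where 1984 of all 19775 genes, 10%, were lower, and the 1 that rose is 1.25%, where 6.72% of all genes were higher. The median log2 fold change of the 80 genes was -0.073 and that of all genes 0.017. Values ranged from -1.25 to 0.69, and 52 of the 80 were below 0. The groups did not overlap for 34 of the 80 genes, 28 of them lower, where this held for 35.9% of all genes, and for 19.3% with LP-1/Cfz lower. By probe set, 23 of 173 fell (13.3%, beside 6.76% of all probe sets) and 5 rose (2.89%, beside 4.25%), together 16.2% beside 11.0%. The groups did not overlap for 72 of the 173, 49 of them lower, where this held for 30.7% of all probe sets and for 16.5% with LP-1/Cfz lower. The changes were small. At a fold of 1.7 or more, the study's cutoff, 1 of the 173 probe sets differed, where 1.59% of all probe sets did. The count of lower genes was 8 without LP-1 replicate 2, and 11 without either LP-1 replicate 3 or LP-1/Cfz replicate 1.

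**Figure D1:**
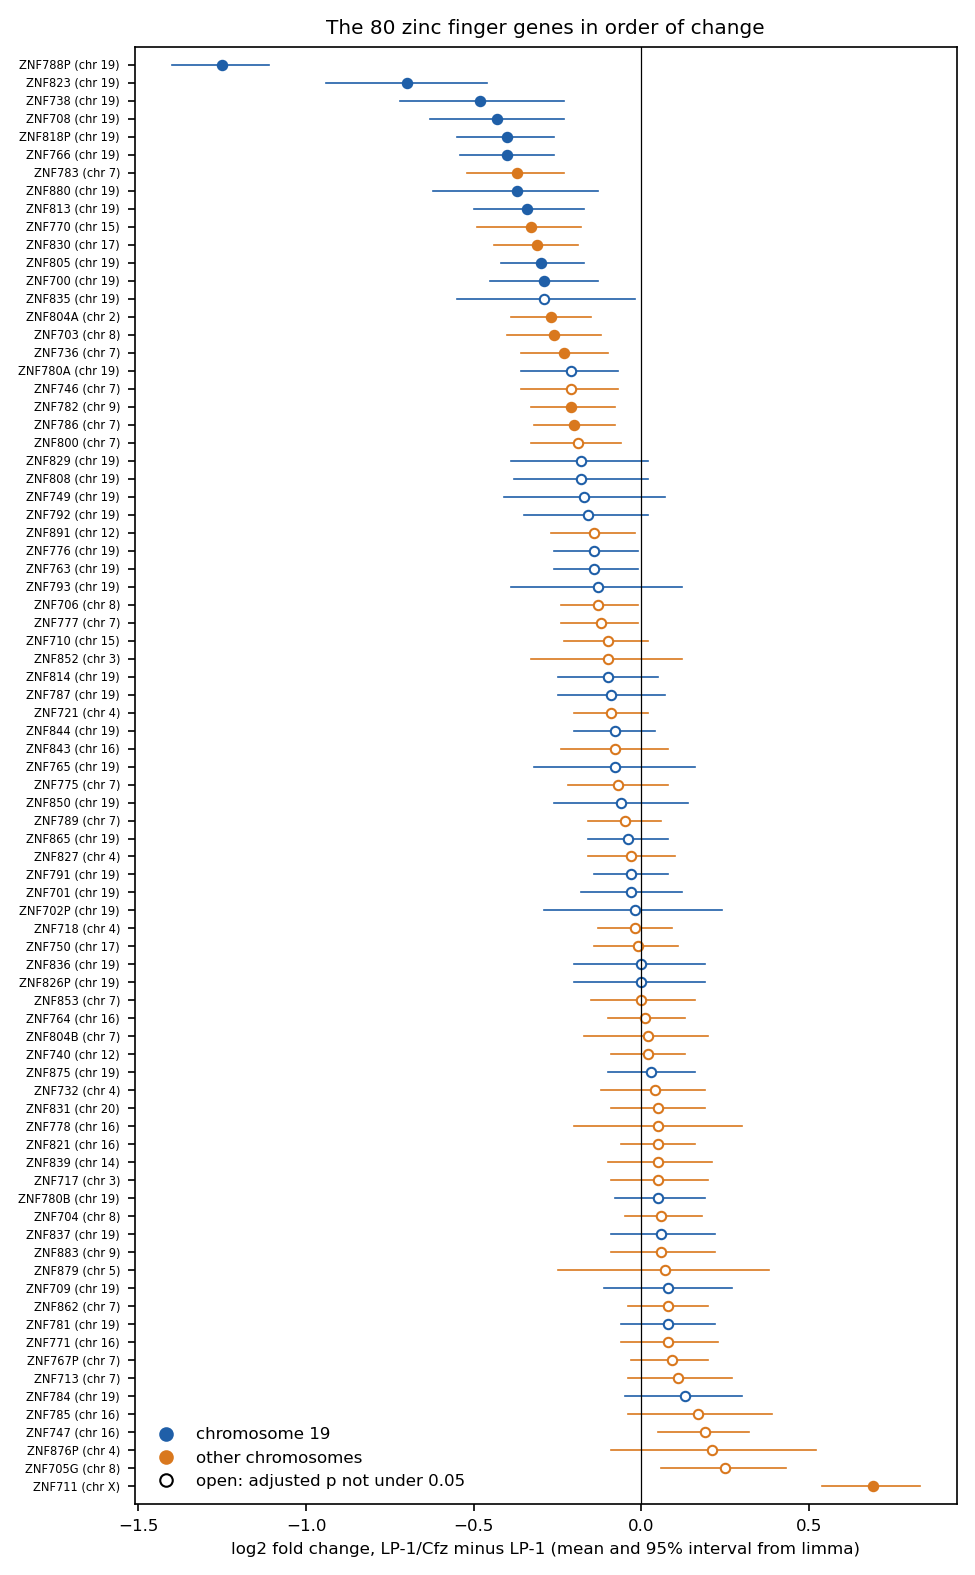
The 80 zinc finger genes from the largest fall to the largest rise in LP-1/Cfz. The horizontal axis is the log2 fold change with its 95% interval from limma, filled points passed at an adjusted p under 0.05, and colour separates chromosome 19 from other chromosomes. The 13 lowest points are filled, and 10 of them are on chromosome 19, while the only filled point above 0 is ZNF711 at 0.69.

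ZNF788P, a transcribed pseudogene of chromosome 19, had the largest change. Its single probe set read 1.20, 1.21 and 1.30 in LP-1 and -0.05, -0.09 and 0.08 in LP-1/Cfz. The groups were separated by more than 1 unit, and the gene was 2.39-fold lower, at -1.25 on the log2 scale with a standard error of 0.062 (limma, adjusted p = 1.44e-05). It was also the probe set past the study's cutoff. ZNF823, a zinc finger gene of the same stretch of chromosome 19, read 0.14, 0.23 and 0.26 in LP-1 and -0.41, -0.32 and -0.73 in LP-1/Cfz. The lowest of these values is that of replicate 3, and all 3 lay below the parental arrays. It was 1.63-fold lower, at -0.70 on the log2 scale with a standard error of 0.103 (limma, adjusted p = 0.00308). Both genes passed whichever array was left out, and with a minimum fold of 1.2 they were the lower genes that still passed.

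A further 8 genes of chromosome 19 fell. ZNF738 read 2.55, 2.88 and 2.69 in LP-1 and 2.09, 2.40 and 2.21 in LP-1/Cfz, a difference of -0.48 with a standard error of 0.104 (limma, adjusted p = 0.0184). Its arrays varied widely within each group, and without LP-1 replicate 2 or 3, or LP-1/Cfz replicate 1 or 3, it did not pass. Nor did it with its highest-mean probe set alone, at -0.34 (limma, adjusted p = 0.0883). Here and below, that is the highest mean of centred values, which need not mark the best expressed probe set. ZNF708 read 0.22, 0.33 and 0.19 in LP-1 and -0.24, 0.01 and -0.31 in LP-1/Cfz, a difference of -0.43 (adjusted p = 0.0134). Among the fits without an array, it lost its call only without LP-1 replicate 2. Its single probe set has a name ending in _x_at, so it had no value without _x_at and _s_at probe sets. ZNF766 read -0.04, -0.10 and -0.02 in LP-1 and -0.45, -0.37 and -0.54 in LP-1/Cfz, and ZNF818P, a pseudogene of the same run of genes, read -0.06, 0.08 and -0.07 against -0.47, -0.43 and -0.37. Both had -0.40 on the log2 scale with separated groups (limma, adjusted p = 0.00321 and 0.0035), and both passed whichever array was left out, though ZNF818P did not with its highest-mean probe set alone, at -0.29 (adjusted p = 0.0751). ZNF880 had -0.37 (limma, adjusted p = 0.0481), a call that needed the same arrays as that of ZNF738 and that neither of its probe sets passed alone (-0.56 and -0.18, adjusted p = 0.0577 and 0.221). ZNF813 had -0.34 (adjusted p = 0.0148), lost without LP-1 replicate 2, and ZNF805 -0.30 (adjusted p = 0.00744). ZNF805 passed whichever array was left out, but had -0.16 when the arrays were quantile normalized again (adjusted p = 0.0569) and -0.19 with its highest-mean probe set alone (adjusted p = 0.195). ZNF700, which is outside the naming rule and given to complete the count, had -0.29 (adjusted p = 0.0259) and did not pass without LP-1 replicate 1, LP-1 replicate 2 or LP-1/Cfz replicate 1.

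**Figure D2:**
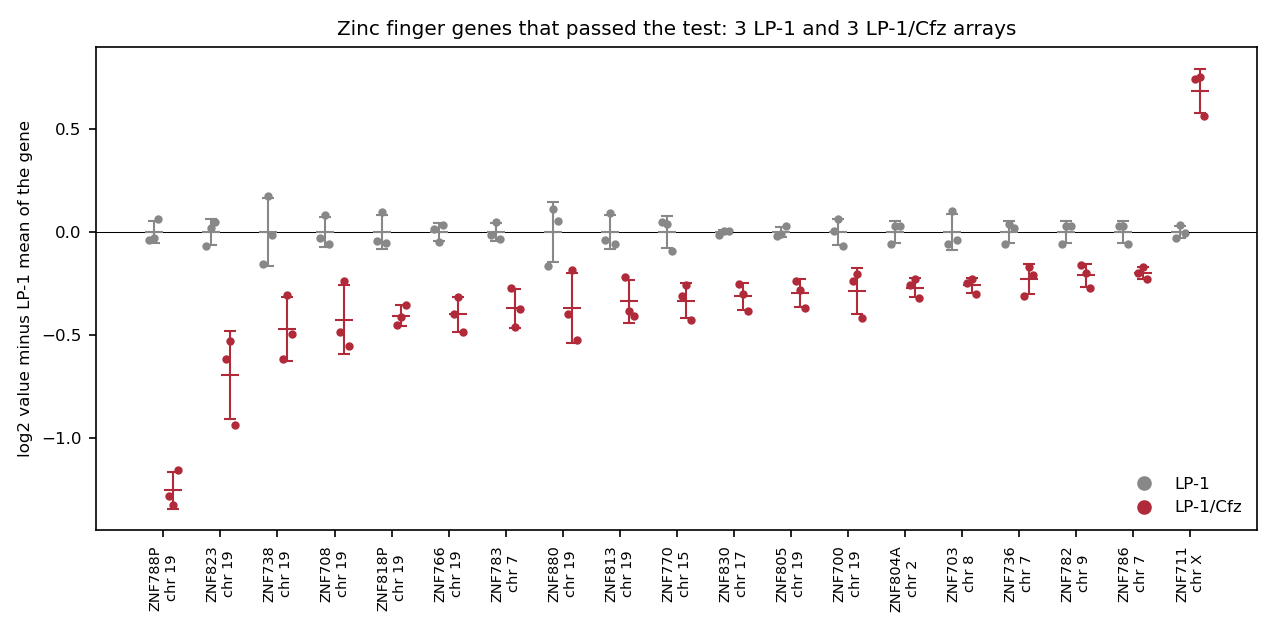
The 19 zinc finger genes that passed the test, by array. Heights are log2 values with the gene's mean in LP-1 taken off. Points are arrays, and bars show means with SD over 3 arrays. All 3 LP-1/Cfz arrays lie below the LP-1 arrays for 18 genes, and above them for ZNF711.

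The sequence before the start of 3 of these lower genes held the same 10 letters. It is shown with that of ZNF711, the gene that rose, as 250 bases up to the start site from RefSeq on GRCh38.p14, 5′ to 3′ on the gene's strand, with ATCCAATCAG in capitals. CCAAT is the core of the box read by the factor NF-Y.
ZNF823 (chr19:11738947-11739196, minus strand): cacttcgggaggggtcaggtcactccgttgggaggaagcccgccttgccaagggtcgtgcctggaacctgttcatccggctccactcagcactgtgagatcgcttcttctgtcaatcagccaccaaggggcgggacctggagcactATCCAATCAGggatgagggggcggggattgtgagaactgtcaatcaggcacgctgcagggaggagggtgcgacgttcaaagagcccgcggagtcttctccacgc
ZNF708 (chr19:21329411-21329660, minus strand): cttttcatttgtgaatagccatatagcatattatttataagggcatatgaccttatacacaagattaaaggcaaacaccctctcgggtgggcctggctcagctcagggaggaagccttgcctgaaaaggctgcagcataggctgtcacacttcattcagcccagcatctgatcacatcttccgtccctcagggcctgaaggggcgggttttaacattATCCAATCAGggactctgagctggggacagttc
ZNF700 (chr19:11924857-11925106, plus strand): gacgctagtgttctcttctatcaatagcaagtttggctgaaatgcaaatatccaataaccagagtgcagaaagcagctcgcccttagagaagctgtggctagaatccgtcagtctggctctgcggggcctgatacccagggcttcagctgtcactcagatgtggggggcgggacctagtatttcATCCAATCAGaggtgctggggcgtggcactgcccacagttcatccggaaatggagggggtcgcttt
ZNF711 (chrX:85243741-85243990, plus strand): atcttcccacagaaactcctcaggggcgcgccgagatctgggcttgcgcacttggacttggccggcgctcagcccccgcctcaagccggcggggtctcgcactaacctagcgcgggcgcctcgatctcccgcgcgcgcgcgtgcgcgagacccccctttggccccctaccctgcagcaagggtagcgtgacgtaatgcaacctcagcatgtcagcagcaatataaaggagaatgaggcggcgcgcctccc

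The 10 letters began 104, 33 and 66 bases before the start of ZNF823, ZNF708 and ZNF700. RefSeq promoters, counted with 50 bases after the start, were at hand for 56 of the 80 genes (66 promoters, among them those of 14 of the 18 lower genes). On either strand, ATCCAATCAG was in 3 of 35 promoters of chromosome 19 genes of this number range, 8.57%, and in 0 of 31 of the others. It was in 21 of 201 promoters of other numbered ZNF genes on chromosome 19, 10.4%, in 1 of 1195 of the remaining chromosome 19 genes and in 0.350% of all 35116 promoters. It was thus no rarer in zinc finger genes of chromosome 19 outside this number range. Of the chromosome 19 members, 3 of 7 promoters of lower genes and 0 of 28 of genes that did not pass held it. The word was noticed in the sequences of ZNF823 and ZNF708 and is the longest run they share with ZNF700, so these genes define it and the count is a description only. Its core CCAATCA, which overlaps it, was in 22.9% of the promoters of chromosome 19 members, 22.6% of those of the others and 6.95% of all promoters. TGACNNNGC, the core of the element read by Nrf2, was in 12.1% of the members' promoters and 13.3% of all. The median number of CG pairs was 21 on chromosome 19, 31 on other chromosomes and 14 over all promoters.

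Outside chromosome 19, 8 genes fell. ZNF783, on chromosome 7, read -0.31, -0.25 and -0.33 in LP-1 and -0.57, -0.76 and -0.67 in LP-1/Cfz. Both of its probe sets passed, and the gene had -0.37 on the log2 scale with a standard error of 0.0614 (limma, adjusted p = 0.0052). ZNF830, a protein found in spliceosomes, read -0.19, -0.17 and -0.17 in LP-1 and -0.43, -0.48 and -0.56 in LP-1/Cfz. It had the tightest parental values of the lower genes and fell on both probe sets, with -0.31 as a gene (adjusted p = 0.00559). ZNF770 read 0.26, 0.25 and 0.12 against -0.10, -0.05 and -0.22, a difference of -0.33 (limma, adjusted p = 0.0112), and it did not pass without LP-1 replicate 1 or LP-1 replicate 2, nor with its highest-mean probe set alone (-0.34, adjusted p = 0.0906). The 5 others are outside the naming rule and complete the count, with log2 fold changes of -0.27 for ZNF804A, whose variants are linked to schizophrenia, -0.26 for ZNF703, -0.23 for ZNF736, -0.21 for ZNF782 and -0.20 for ZNF786. ZNF782 and ZNF786 did not pass once any of the 6 arrays was left out, while ZNF703 and ZNF736 failed in 4 of those 6 fits and ZNF804A without LP-1 replicate 3. With the arrays quantile normalized again ZNF804A had -0.06 (limma, adjusted p = 0.515). With the highest-mean probe set alone ZNF703 had -0.09, ZNF736 -0.07 and ZNF782 -0.07 (adjusted p = 0.574, 0.723 and 0.713). Since values are centred, that choice does not mark the probe set with most signal. Another probe set of each of these genes passed by limma, at -0.43, -0.46 and -0.57 (adjusted p = 0.00935, 0.00369 and 0.00201). The probe sets of these genes thus differed in size of change. Each of these 5 calls failed without some array, so none is firm.

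ZNF711 was the only gene of the 80 that rose. This X-linked gene, in which mutations cause intellectual disability, read 0.18, 0.24 and 0.20 in LP-1 and 0.95, 0.96 and 0.77 in LP-1/Cfz. It was 1.61-fold higher, at 0.69 on the log2 scale with a standard error of 0.0632 (limma, adjusted p = 0.000316). Its probe sets gave 0.68 and 0.70, each past the test, and the gene passed whichever array was left out. It is also the only one of the 80 on chromosome X, where 163 of 696 genes were higher, 23.4% against 6.72% of all genes. Of the 10 nearest genes of other families around it, 3 were higher and 0 lower, and their median log2 fold change was 0.083. Whether the rise of ZNF711 is part of that of the chromosome was not tested.

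At the gene level, chromosome 19 genes stood lower than the others, while the share of probe sets that fell was about equal. Of 36 genes, 10 fell and 0 rose by limma (0 higher and 14 lower at an unadjusted p under 0.05), and 30 had a log2 fold change below 0. Of 44 on other chromosomes, 8 fell and 1 rose, and 22 were below 0. The shares lower were 27.8% on chromosome 19 and 18.2% elsewhere, both above the 10% of all genes. Of all 19775 genes, 6.72% were higher and 8901 had a value below 0. By probe set, 9 of 70 fell on chromosome 19 (12.9%) and 14 of 103 elsewhere (13.6%), and 2 and 3 rose. Of all probe sets, 6.76% fell and 4.25% rose. Without LP-1 replicate 2, 5 genes fell on chromosome 19 and 3 elsewhere, and leaving out any other array gave 3 to 6 elsewhere. The median was -0.13 on chromosome 19 and -0.0062 elsewhere over genes, and -0.13 and -0.021 over probe sets. On each array, the mean over chromosome 19 genes minus that over the others was -0.31, -0.24 and -0.28 in LP-1/Cfz and -0.14, -0.085 and -0.13 in LP-1. The 2 groups of arrays do not overlap in this difference, which was -0.28 ± 0.036 in LP-1/Cfz and -0.12 ± 0.029 in LP-1 (SD, n = 3). Genes are not replicates, so no test is given. The gap in medians of -0.13 was -0.06 without LP-1 replicate 2, so that its size is not firm. It was -0.003 when only the more variable genes were kept. That filter took the SD over all 6 arrays, which includes the difference between the lines. It thus keeps genes partly because they changed and cannot check the gap.

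The lower values were not those of chromosome 19 as a whole. Of 1094 chromosome 19 genes outside the numbered ZNF and ZFP families, 112 were lower, 10.2%, beside 10% of all genes, and their median log2 fold change was -0.004. Other numbered ZNF genes moved much as the 80 did. Of 386, 78 fell and 8 rose, 20.2% lower, with a median of -0.081. Among them chromosome 19 made little difference to the share, at 37 of 184 lower (20.1%) on chromosome 19 and 41 of 202 (20.3%) elsewhere, with medians of -0.10 and -0.054. None of these shares was tested against another.

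Chromosome 19 zinc finger genes lie in runs of neighbours. With at most 10 other genes between successive ones, the 36 fell into 10 runs, of which 4 held all 10 lower genes. The run from ZNF577 to ZNF331 held 9, all with values below 0, of which ZNF766, ZNF880, ZNF818P and ZNF813 fell. In the same run ZNF808, whose loss causes failure of the pancreas to form, had -0.18 (95% interval -0.38 to 0.02). The run from ZNF653 to ZNF791 held 7, with falls in ZNF788P, ZNF823 and ZNF700 and values from -0.14 to 0.08 in ZNF763, ZNF844, ZNF791 and ZNF709. In that from ZNF826P to ZNF254, ZNF708 and ZNF738 fell while ZNF826P, a pseudogene, had -0.0025. In that from ZNF264 to ZNF446, 1 of 5 fell, ZNF805. In the run from ZNF565 to ZNF573, 0 of 5 passed by limma, at -0.18 to 0.08, and 0 had an unadjusted p under 0.05. With 10% of all genes lower, 5 genes are too few to set this run apart. Of its 23 other zinc finger genes, 4 were lower, with a median of -0.11. That was 2 of 14 and -0.12 in the run from ZNF653 to ZNF791, and 3 of 25 and -0.11 in that from ZNF577 to ZNF331. It was 5 of 16 and -0.075 in the run from ZNF826P to ZNF254, and 4 of 36 and -0.057 in that from ZNF264 to ZNF446. Members of a run therefore differed among themselves, as ZNF788P at -1.25, on its single probe set, and ZNF791 at -0.03 show.

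**Figure D3:**
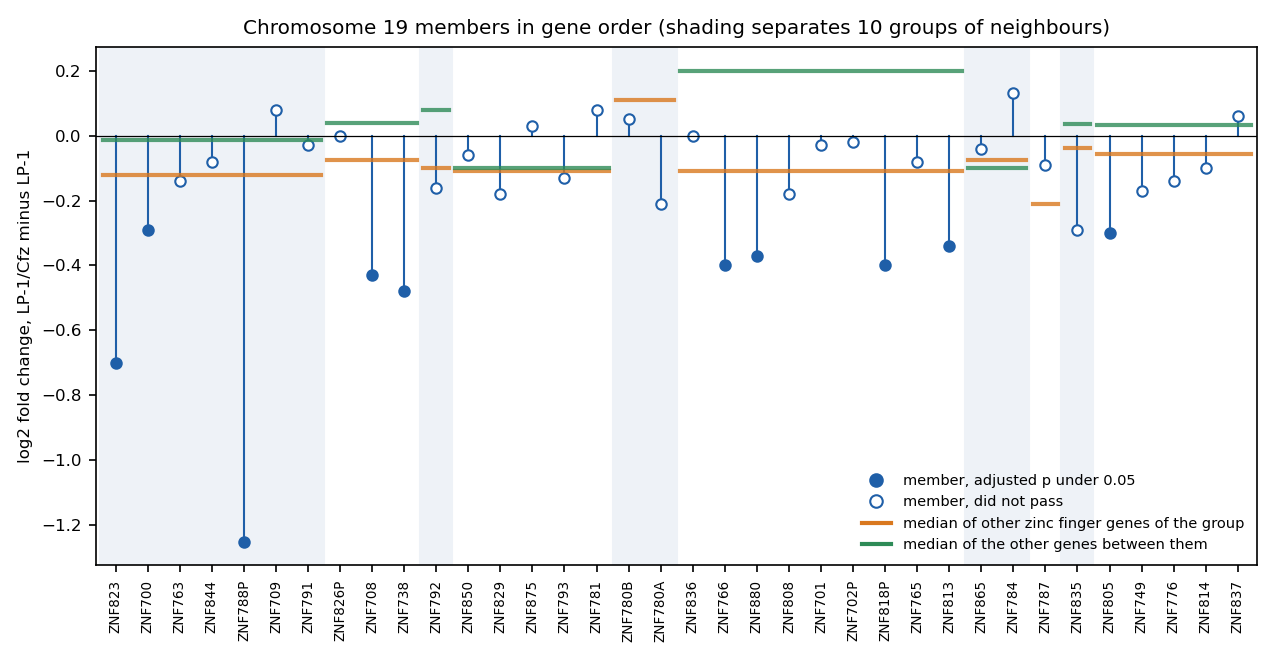
The 36 chromosome 19 genes in gene order, with shading that separates the 10 runs. The vertical axis is the log2 fold change, filled points passed the test, and bars give the median of the other zinc finger genes (orange) and of the genes between them (green) in each run. Filled points reach -1.25 in the first run, while the green bars lie between -0.10 and 0.20.

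Among genes of other families between the zinc finger genes, 1 fell, of 11 in the run of ZNF805, and 1 rose, of 11 in that of ZNF708. The other runs with such genes held 2 to 7 of them, and 0 passed. Of all genes, 10% were lower and 6.72% higher. Whether the genes between differed from these shares was not tested. In the run of ZNF788P and ZNF823, 5 such genes were measured, 0 passed by limma and their median was -0.013. In the run of ZNF766, 5 were measured, 0 passed and the median was 0.20. For each of the 80 genes, the median of the nearest measured genes of other families was taken, up to 5 on each side. There were 10 of them for all but ZNF718, ZNF721, ZNF732, ZNF750, ZNF876P and ZNF891, which had 5 to 7. It was between -0.07 and 0.14 for the 18 lower genes and below 0 for 5 of them. Across the 80 genes the value of a gene and that of its neighbours had a Pearson r of -0.058 and a Spearman rho of -0.13. This is a description over genes of the same arrays, in which adjacent members share neighbours.

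Members of other chromosomes showed no single direction. On chromosome 7, 3 of 13 fell and 0 rose, with a median of -0.066. ZNF783 and ZNF786 fell, and near them ZNF746, known as PARIS and a substrate of the ligase parkin, had -0.21 (95% interval -0.36 to -0.07, adjusted p = 0.0563), ZNF777 -0.12, ZNF767P 0.09 and ZNF862 0.08. On chromosome 16, 6 of 7 genes were above 0, as were 10874 of all 19775 genes. By limma 0 of the 7 passed (1 at an unadjusted p under 0.05). The largest value among them was that of ZNF747, which read 0.96, 0.89 and 1.03 in LP-1 and 1.15, 1.20 and 1.09 in LP-1/Cfz. Its groups did not overlap, at a difference of 0.19 (95% interval 0.05 to 0.32, adjusted p = 0.0674). ZNF827, which brings the NuRD complex to telomeres in some cancers, had -0.03 (95% interval -0.16 to 0.10), and ZNF750, a regulator of epidermal differentiation, -0.01. Of the 61 members that did not pass, ZNF835 on chromosome 19 had the largest change, -0.29 (limma, adjusted p = 0.138). It read -0.60, -0.17 and -0.29 in LP-1/Cfz, and the second of these values lay within the parental range.

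Probe sets of a gene often differed. Of 53 genes with more than 1 probe set, 28 had values on both sides of 0, and 3 had all probe sets past the test in 1 direction, which were ZNF711, ZNF783 and ZNF830. ZNF718, on chromosome 4, was the only gene with calls in opposite directions. A first probe set read 1.59, 1.59 and 1.45 in LP-1 and 1.08, 1.11 and 1.09 in LP-1/Cfz, lower by 0.45 (limma, adjusted p = 0.00378). The other read 0.59, 0.49 and 0.63 in LP-1 and 1.03, 0.99 and 0.94 in LP-1/Cfz, higher by 0.41 (adjusted p = 0.00607). The arrays of each group lay close together on both, so the probe sets differ by far more than the replicates, and the mean for the gene, -0.02, describes neither.

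Conversely, 3 genes passed as a gene with no probe set past the test. These are ZNF700 and ZNF786, whose single probe sets had adjusted p = 0.0501 and 0.0867 over all probe sets by limma, and ZNF880. A further 5 genes passed on a probe set and not as a gene. ZNF789 had -0.53 on 1 probe set (limma, adjusted p = 0.00186) and 0.04 to 0.21 on its 3 others. ZNF709 rose by 0.27 and 0.33 on 2 probe sets (adjusted p = 0.0423 and 0.0177) and did not pass on its others, which gave 0.30 on 1 and -0.26 on 2. ZNF721, on chromosome 4 as ZNF718 is, had -0.30 on 1 probe set (limma, adjusted p = 0.0147) and 0.12 on its other probe set. The name of the latter marks it as prone to reading other transcripts. ZNF800 had -0.34 on 1 of 4 probe sets (adjusted p = 0.0124) and -0.32, -0.25 and 0.13 on the others. ZNF746, the last of them and outside the naming rule, had -0.34 on 1 (adjusted p = 0.0382) and -0.08 on its other probe set. Where paralogs are near-identical, probes can read several of them. Of the 173 probe sets, 22 have names ending in _x_at and 17 in _s_at, and 18 further probe sets that name a member with other genes were not used.

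**Figure D4:**
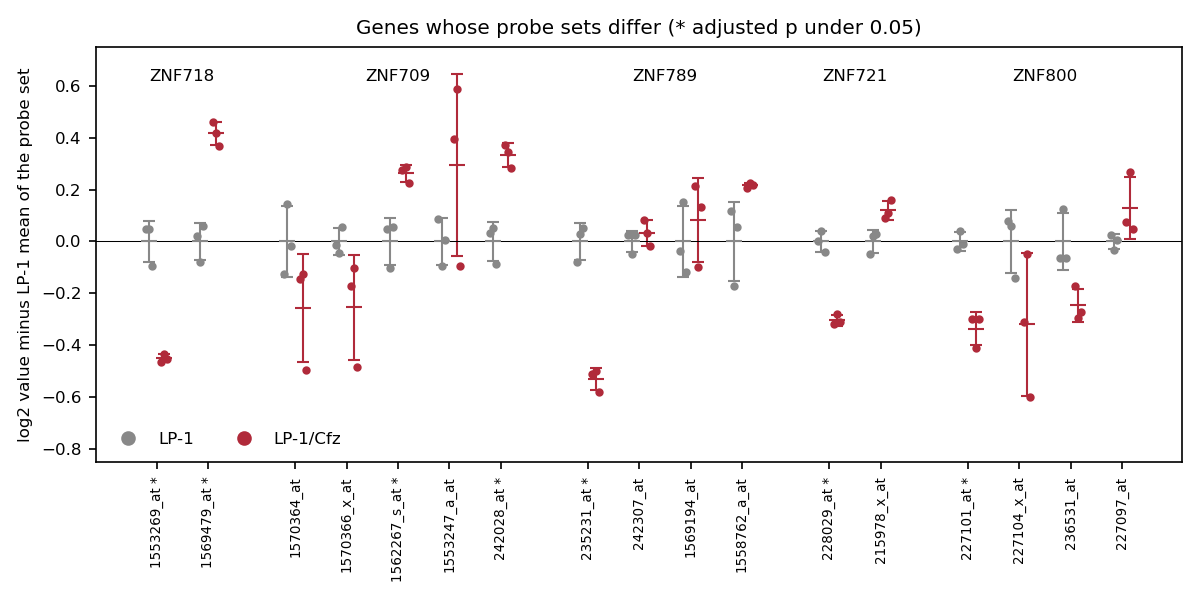
Probe sets of ZNF718, ZNF709, ZNF789, ZNF721 and ZNF800 by array. Heights are log2 values with the probe set's mean in LP-1 taken off, points are arrays, bars show means with SD over 3 arrays, and stars mark an adjusted p under 0.05. The probe sets of ZNF718 lie 0.45 below and 0.41 above the parental mean.

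A list of genes for proteins through which KRAB zinc fingers repress, or that work with these, came next. It also held the zinc finger genes ZFP57, ZKSCAN1 and ZKSCAN3, which were counted and did not pass. Of 42 listed genes, 39 were measured, of which 6 fell and 1 rose by limma, with a median log2 fold change of -0.066. Their share lower, 15.4%, stands beside 10% of all genes, and their share called in either direction, 17.9%, beside 16.7%. TRIM28, the corepressor itself, read -0.29, -0.34 and -0.27 in LP-1 and -0.36, -0.37 and -0.40 in LP-1/Cfz, a log2 difference of -0.08 (95% interval -0.19 to 0.03, adjusted p = 0.316). SETDB1 had 0.05 (95% interval -0.08 to 0.17, adjusted p = 0.612). Neither passed. The groups of TRIM28 did not overlap, with LP-1/Cfz the lower, and those of SETDB1 did.

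The genes that fell were UHRF1, DNMT1, SUV39H2, SUV39H1, CHD3 and HDAC1. UHRF1, which brings DNMT1 to newly copied DNA, read -0.01, 0.07 and -0.02 in LP-1 and -0.44, -0.48 and -0.70 in LP-1/Cfz, a difference of -0.55 with a standard error of 0.0762 (limma, adjusted p = 0.00224). DNMT1, the maintenance DNA methyltransferase, had -0.26 (adjusted p = 0.0106). Both passed whichever array was left out. The H3K9 methyltransferases SUV39H2 and SUV39H1 had -0.23 and -0.22 (adjusted p = 0.0247 and 0.0287), and the NuRD genes CHD3 and HDAC1 had -0.18 and -0.17 (adjusted p = 0.0473 and 0.042), of which HDAC1 is outside the naming rule. SUV39H2, SUV39H1 and CHD3 did not pass in 4, 5 and 6 of the 6 fits without an array, and in each of those fits 2 to 3 partners were lower. With the highest-mean probe set alone SUV39H2 had -0.17 and did not pass (limma, adjusted p = 0.164). SUV39H1 has 1 probe set, so its value of -0.22 was unchanged there. Its adjusted p of 0.058 by limma reflects the other genes in that fit. ATRX, a chromatin remodeller encoded on chromosome X, rose by 0.34 (limma, adjusted p = 0.00619), on 2 of its 4 probe sets, and had 0.30 with its highest-mean probe set alone (adjusted p = 0.0706).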

How the data were processed

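RNA of 3 LP-1/Cfz and 3 LP-1 samples was hybridised to Affymetrix U133 Plus 2.0 arrays. The authors deposited log2 values per probe set, for which the submitters' notes name RMA (version not given in the sources used here). Each probe set is centred on an unstated baseline, and signal over background cannot be read. Precision is limited by how few arrays there are: 3 against 3 cannot give a two-sided exact permutation p under 0.1.

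Probe sets were named from a table of the platform annotation. Of 54613, 41091 name 1 gene, 1801 several and 11721 none, and all 80 members matched RefSeq (GRCh38.p14) by gene ID and symbol. Chromosome and gene order came from that table, and promoters from RefSeq. The groups were fitted in R 4.3.3 with limma 3.58.1 (lmFit, eBayes, no covariate). Its p-values were adjusted by Benjamini-Hochberg, either across 54613 probe sets or across 19775 genes (means of single-gene probe sets), at a threshold of 0.05. The fits were tested on simulated data.

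Members and lists were chosen with earlier results of these data known. The naming rule took, among genes that passed with groups that do not overlap, the 12 largest rises and 12 largest falls, genes with calls in opposite directions, up to 5 called on probe sets only, up to 5 called KRAB partners in each direction with TRIM28 and SETDB1, and the largest change that did not pass. Background genes named for their role follow no rule. Alternatives were another normalization, centring, array weights, robust variance, a replicate block, a minimum fold, other probe set choices, a variance filter and each array left out.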

Additional observations from a re-analysis of the deposited data

How the results depend on the processing

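Of 207 values of the counts and median differences under the alternatives, 148 stayed within 1.5 times the count or within the spread of the arrays. The 18 lower and 1 higher genes were 8 to 16 and 1 to 2 with 1 array left out, and the 23 lower and 5 higher probe sets 10 to 18 and 3 to 6. On chromosome 19 the 10 lower genes were 5 to 10, with 0 higher throughout, and elsewhere the 8 lower were 3 to 6 and the 1 higher 1 to 2. Other numbered ZNF genes gave 48 to 69 lower and 5 to 9 higher, and KRAB partners 2 to 3 lower and 1 higher. With a minimum fold of 1.2, 2 lower genes remained, both on chromosome 19 and 0 elsewhere, with 1 lower and 2 higher probe sets, 7 lower and 2 higher other ZNF genes, and 0 and 0 partners. At a fold of 1.7 with no test, 1 of the 28 probe sets was left. Quantile normalization again gave 2 higher genes, 2 elsewhere than chromosome 19, and 2 higher partners, and array weights gave 3 higher genes, also 3 elsewhere. With the highest-mean probe set, 6 chromosome 19 genes and 3 partners were lower. Without _x_at and _s_at probe sets, 5 other ZNF genes were higher, and 2 partners lower and 0 higher.

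The gap in medians between chromosome 19 and the other members, -0.13, was -0.13 to -0.06 with 1 array left out, -0.18 with the highest-mean probe set and -0.003 among the more variable genes. The more variable genes were chosen by the SD over both lines, so that filter keeps genes partly because they changed. The difference in medians between the 80 genes and other numbered ZNF genes, 0.0076, had no firm sign, at -0.0078 with array weights, -0.0069 without _x_at and _s_at probe sets, -0.019 with the highest-mean probe set, -0.0048 among the more variable genes and -0.0049 to 0.023 with 1 array left out (-0.0049 without LP-1/Cfz replicate 3). With the highest-mean probe set, ZNF709, ZNF789 and ZNF800 changed sign, to -0.26, 0.04 and 0.13. Of the 19 genes that passed, 8 kept their calls in all 6 fits that left out 1 array and 3 in every alternative, and 0 reversed. The causes were not tested.

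Same-numbered arrays deviated together with correlations of -0.0487, 0.126 and -0.00556, and differently numbered ones with -0.118 to 0.129. No pairing showed in these values, which cannot tell whether same-numbered samples were prepared together. With the replicate block 16 genes were lower and 1 higher, and lower partners went from 6 to 3. The comparison among members with a KRAB box was not run, since proteins were not used here. Centred values limit any filter on level and the meaning of the highest-mean probe set.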
